A study of Homo sapiens with 6 samples.

Results

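The integrated stress response effectors described here are 10 genes that act downstream of the transcription factor ATF4: DDIT3, TRIB3, CHAC1, SESN2, DDIT4, ATF3, ATF5, PPP1R15A, GDF15 and NUPR1. They were chosen by name, with earlier results of these data known. Every probe set that the array's annotation assigned to exactly 1 gene, with that gene among the 10, was included. This gave 27 probe sets among the 49293 tested, and 10 genes among 18132 when each gene was represented by its brightest probe set. RNA came from SH-SY5Y, a long-established line from a human neuroblastoma, a tumour of the sympathetic lineage, grown as 1 line in serum-containing medium. The 3 endosulfan arrays hold RNA of cells exposed for 24 h to 3 µM endosulfan, a chlorinated insecticide that acts on GABA receptor chloride channels, a dose stated as the LC50 divided by 5. The 3 control arrays come from cells whose agent is given as control. The labels do not say what those cells received, and the treatment field repeats the endosulfan dose for every array, so the agent field set the groups. The arrays are labelled as biological replicates but tied to no named culture or day, so p-values measure the spread between these arrays, which may be technical.

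The integrated stress response begins when kinases that sense endoplasmic reticulum stress, amino acid shortage, haem shortage, mitochondrial stress or double-stranded RNA phosphorylate the translation factor eIF2. General translation then slows, while mRNAs with short upstream reading frames, ATF4 among them, are translated better. ATF4 and the factors it induces, CHOP (encoded by DDIT3), ATF3 and ATF5, drive genes for amino acid supply, glutathione breakdown, growth control and, when stress lasts, cell death, and PPP1R15A closes the loop by returning eIF2 to its unphosphorylated form.

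Promoter windows are shown for the 3 effectors in which a searched response element was found. Windows of 300 bases, 250 before and 50 after a RefSeq transcript start (GRCh38.p14), were given for 9 of the 10 genes, 15 windows in all because several genes have more than 1 start. NUPR1 had no entry. Each window was searched on both strands for TGATGNAA, the core of the element that ATF4 binds with a C/EBP partner, for the cAMP response element TGACGTCA, and for the endoplasmic reticulum stress element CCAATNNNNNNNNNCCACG. TGATGNAA was found in 2 of the 15 windows, 1 of CHAC1 and 1 of ATF3, against 3.62% of the 35116 windows in the table. TGACGTCA, which reads the same on both strands, was found in the window of PPP1R15A alone among the 15, against 1.85% of all windows. No matches of different motifs overlapped in these windows. The stress element was found in 0 of the 15, against 0.0769%. Only exact matches were counted, and both DDIT3 windows hold a stretch that departs from the stress element in its last letter alone. A match of letters is a description and no sign that a factor binds there. The 250 bases before the start are printed 5′ to 3′ on the gene's strand, with the match in capitals. They lie at chr15:40953221-40953470 (plus strand) for CHAC1, chr1:212565157-212565406 (plus strand) for the upstream start of ATF3 and chr19:48872171-48872420 (plus strand) for PPP1R15A. In CHAC1 the element lies on the opposite strand and so appears as its reverse complement.
CHAC1: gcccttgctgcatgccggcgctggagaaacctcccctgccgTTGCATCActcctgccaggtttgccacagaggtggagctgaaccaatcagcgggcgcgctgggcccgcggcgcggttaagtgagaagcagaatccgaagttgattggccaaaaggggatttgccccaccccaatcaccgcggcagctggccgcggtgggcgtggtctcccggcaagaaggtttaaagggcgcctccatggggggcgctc
ATF3: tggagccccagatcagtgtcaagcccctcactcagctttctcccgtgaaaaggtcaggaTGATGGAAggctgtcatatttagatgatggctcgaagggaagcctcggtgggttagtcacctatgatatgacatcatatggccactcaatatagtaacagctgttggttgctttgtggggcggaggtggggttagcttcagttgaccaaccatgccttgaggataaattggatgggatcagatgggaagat
PPP1R15A: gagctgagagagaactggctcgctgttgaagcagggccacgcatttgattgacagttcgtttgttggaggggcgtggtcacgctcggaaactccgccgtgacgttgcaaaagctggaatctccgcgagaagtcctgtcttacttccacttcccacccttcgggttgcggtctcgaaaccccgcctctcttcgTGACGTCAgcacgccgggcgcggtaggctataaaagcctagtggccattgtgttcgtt
The match begins 209 bases before the start in CHAC1, 191 before it in ATF3 and 58 before it in PPP1R15A.

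The values are the authors' log2 RMA values, a scale on which 1 unit is a doubling. Array medians lay between 4.89 and 4.94, and Pearson's r between arrays, computed over probe sets (not independent of one another), was 0.964 to 0.995. The number of arrays limits the precision. The sympathetic markers of this line were at 7.72 to 13.19 for 8 measured genes, among them HAND2, GATA3, PHOX2A and DBH, as means of 6 arrays. The ranges of the other lists were 3.26 (EPCAM) to 7.06 (KRT19) for 4 epithelial genes, 2.81 (PTPRC) to 5.95 (CD68) for 3 blood genes, 4.30 (CDH5) to 5.88 (PECAM1) for 3 endothelial genes and 5.14 (S100B) to 7.72 (PDGFRB) for 4 Schwann and mesenchymal genes, the last level with the lowest sympathetic marker, TH, at 7.72. Levels of different probe sets are not on a common scale. Bacterial poly-A transcripts, spiked in before labelling, had a mean log2 level of 6.57 ± 1.02 in control and 8.11 ± 0.60 in endosulfan arrays (SD, n = 3 each), with control 2 at 7.73, level with endosulfan 2 at 7.73 (exact permutation p = 0.2, two-sided, where 0.1 is the smallest that 3 arrays against 3 can give). The 3′ minus 5′ difference of GAPDH, a sign of RNA integrity, was 0.75 ± 0.06 and 0.84 ± 0.04 (SD, n = 3 each, exact permutation p = 0.1). That of beta-actin was far larger in both groups, at 3.59 ± 0.07 and 3.67 ± 0.10 (SD, n = 3 each, exact permutation p = 0.3). The spike-in levels and the beta-actin difference overlapped between the groups, while the GAPDH difference was larger in all 3 endosulfan arrays than in all 3 controls. The part of the GAPDH and beta-actin measures in the differences below was not tested. A fit that holds the spike-in level as a covariate was made, and it turned the sign of 10 of the 27 effector differences, none of them called. Arrays of whole cultures do not separate fewer cells expressing a gene from less RNA per cell.

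No effector passed the test between endosulfan and control cells. The brightest sets of CHAC1 and ATF3 lay lower in all 3 endosulfan arrays than in all 3 control arrays, by 1.39-fold and 1.40-fold. The brightest set of ATF5 lay higher by 1.44-fold, but none of these differences survived adjustment. The 2 probe sets of DDIT3, which encodes CHOP, differed by 1.09-fold and 1.00-fold, with overlapping groups. With limma and Benjamini-Hochberg adjustment over all probe sets, 0 of the 27 sets had an adjusted p below 0.05, against 0.00811% of all probe sets. At an unadjusted p below 0.05 there were 3 of 27, or 11.1%, against 15.5% of all probe sets, a share not above the background. With each gene taken by its brightest set, the share was 30% of the 10 effectors against 17.1% of all genes, above the background. The comparison of shares thus depends on the level, and neither difference in share was tested. Groups did not overlap in 2 sets on the lower side, where 9.24% of all probe sets did the same, and in 1 on the higher side, where 11.5% of all did. Among genes these shares were 20% of the effectors against 10.2% of all genes lower, and 10% against 12.4% higher. At gene level 0 of 10 passed with limma, against 0.00552% of all genes. With a linear model without moderation the count was also 0, but so was the count over all 18132 genes. That fit therefore says nothing of the effectors in particular. The median log2 difference over the 27 sets was 0.09, beside 0.05 over all probe sets.

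**Figure D1:**
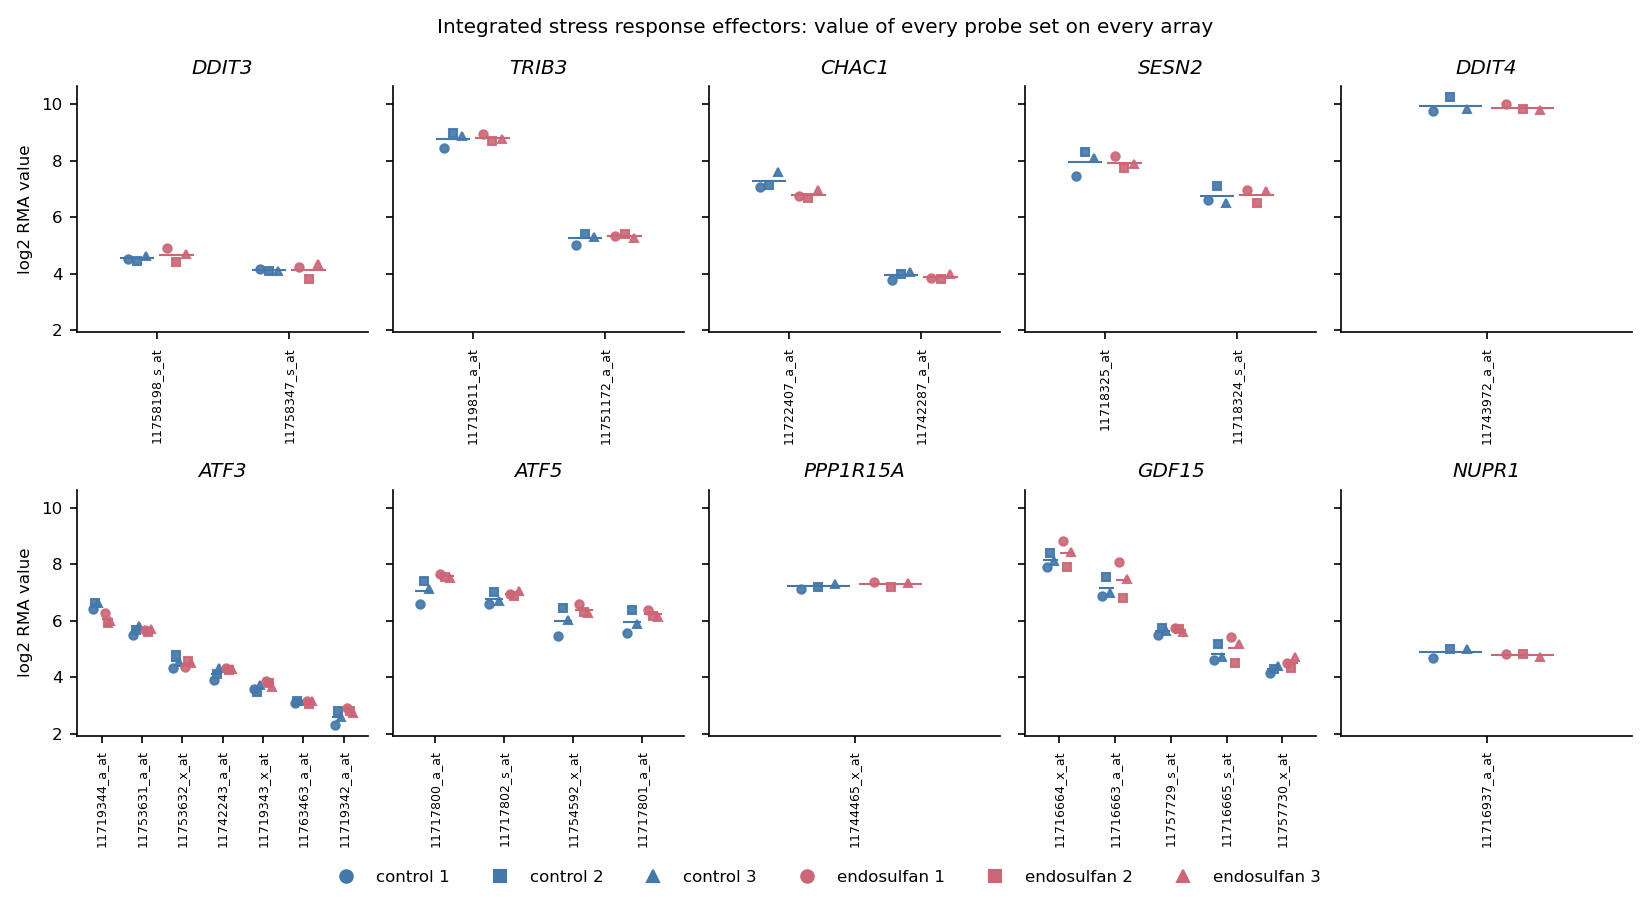
Log2 RMA value (vertical axis) of every probe set of the 10 effectors (horizontal axis, 1 panel a gene) on the 3 control arrays (blue) and the 3 endosulfan arrays (red), with symbols for the replicate number and lines for the group means. Groups are apart in 3 of the 27 sets, 11722407_a_at of CHAC1, 11719344_a_at of ATF3 and 11717800_a_at of ATF5.

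The intervals describe the precision of the array values. In the limma fit, the 95% intervals of 26 of the 27 sets lay inside a 2-fold difference in either direction, and those of 19 inside 1.5-fold, each interval taken for 1 set without adjustment for the number of sets. No set could be called above background, and for a set near background a narrow interval sets no limit on the difference in RNA. The 10 effector sets at or below the median level of all probe sets, both DDIT3 sets and the NUPR1 set among them, all lay inside 1.5-fold, against 9 of the 17 sets above that level. The 1 set not inside 2-fold, 11716663_a_at of GDF15, had an interval of 0.74-fold to 2.04-fold. Over all 27 sets the count inside 2-fold was 21 without moderation and 22 once the spike-in level entered as a covariate, and the count inside 1.5-fold was 7 with the covariate.

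**Figure D2:**
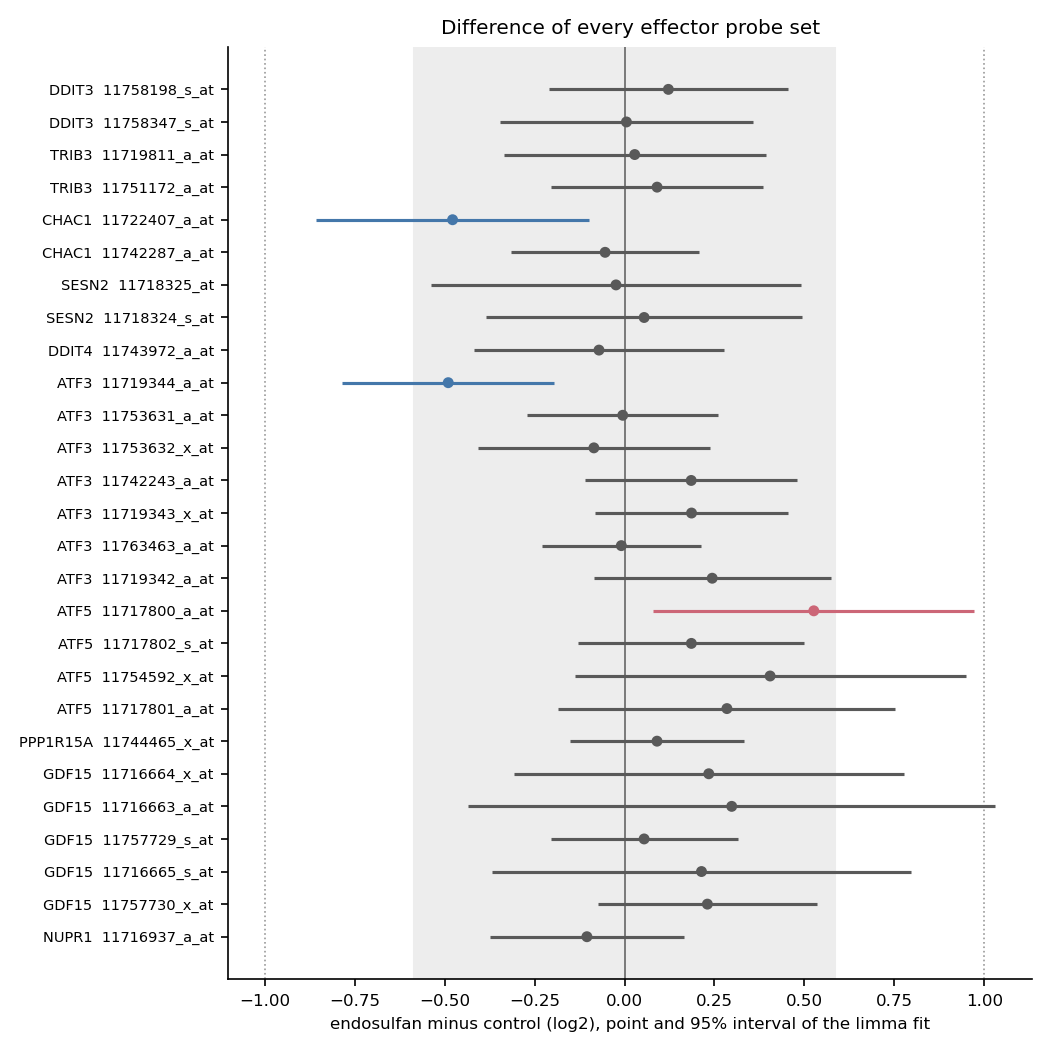
Difference between endosulfan and control (log2, horizontal axis) of each of the 27 effector probe sets (vertical axis), with the 95% interval of the limma fit. The grey band marks 1.5-fold and the dotted lines 2-fold, and blue or red marks the 3 sets whose groups do not overlap. The intervals of these 3 sets do not hold 0, and 26 of the 27 lie inside the dotted lines.

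DDIT3 encodes CHOP, a bZIP factor that pairs with C/EBP proteins and promotes cell death in lasting stress. Its set 11758198_s_at was at 4.53, 4.46 and 4.64 in control arrays 1 to 3 and at 4.90, 4.40 and 4.70 in endosulfan arrays 1 to 3. Endosulfan 1 held the highest and endosulfan 2 the lowest value of the 6, so the exposed group spanned the controls. The log2 difference was 0.12 ± 0.14 (SE), with an adjusted p (limma) of 0.703, and the interval ran from 0.86-fold to 1.37-fold. The other set, 11758347_s_at, was at 4.18, 4.09 and 4.08 in control and at 4.22, 3.79 and 4.35 in endosulfan arrays, and endosulfan arrays again held both ends of the range. Its log2 difference was 0.01 ± 0.15 (SE), with an interval of 0.79-fold to 1.28-fold. Both sets carry the suffix that marks probes shared between transcripts.

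TRIB3, a pseudokinase that CHOP and ATF4 induce and that restrains AKT and ATF4 itself, gave nearly equal group means. Its set 11719811_a_at was at 8.46, 8.99 and 8.87 in control and at 8.96, 8.69 and 8.76 in endosulfan arrays. Controls held the lowest value, in control 1, and the highest, in control 2, with all endosulfan arrays between them. Means differed by 0.03 ± 0.16 on the log2 scale (SE, interval 0.79-fold to 1.31-fold), and that of the second set, 11751172_a_at, was 0.09 ± 0.13 (SE), with control 1 again lowest and control 2 highest.

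CHAC1 encodes a gamma-glutamyl cyclotransferase that breaks down glutathione and is among the genes most responsive to ATF4 with CHOP or ATF3. Its set 11722407_a_at was at 7.08, 7.14 and 7.62 in control and at 6.74, 6.70 and 6.97 in endosulfan arrays. All 3 endosulfan arrays were below all 3 controls, and control 3 stood above the other controls. The log2 difference was -0.48 ± 0.16 (SE, n = 3 each), a 1.39-fold lower mean with an interval of 0.55-fold to 0.93-fold of the control level. The unadjusted p was 0.0200 and the adjusted p (limma) 0.256. Without control 3 the log2 difference was -0.31, smaller by over 1.5 times, with an adjusted p of 0.449 at gene level. The second set, 11742287_a_at, was at 3.78, 3.99 and 4.05 in control and at 3.85, 3.83 and 3.97 in endosulfan arrays, with overlapping groups and a log2 difference of -0.05 ± 0.11 (SE), and the mean of both sets gave -0.27.

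ATF3, a bZIP repressor and activator induced by ATF4 and by several other stress pathways, has 7 probe sets, which did not move alike. The brightest, 11719344_a_at, was at 6.41, 6.61 and 6.63 in control and at 6.26, 5.92 and 6.01 in endosulfan arrays. All 3 endosulfan arrays lay below all 3 controls. The log2 difference was -0.49 ± 0.13 (SE, n = 3 each), with an interval of 0.58-fold to 0.87-fold, an unadjusted p of 0.00504 and an adjusted p (limma) of 0.215. This set ranked at 1149 of 49293 by p, the smallest p among the 27. The value was -0.51 in the spike-in covariate fit and between -0.59 and -0.42 with 1 array left out. In the other 6 sets the groups overlapped, with log2 differences from -0.09 (11753632_x_at) to 0.24 (11719342_a_at), 3 of them above 0.15 and 3 below 0. The set 11753631_a_at, at 5.51, 5.67 and 5.82 in control and at 5.67, 5.60 and 5.72 in endosulfan arrays, gave -0.01 ± 0.12 (SE). With the mean of all 7 sets the log2 difference of ATF3 was 0.00, so the lower value rests on 1 probe set. Apart from 11753631_a_at, with a mean of 5.66 over the 6 arrays, the other sets had means from 4.51 down to 2.69. These lie below the median level of all probe sets. As no set could be called above background, overlap in such dim sets does not show that ATF3 RNA was unchanged. The mean of all 7 sets has the same limit. Which transcripts each set detects was not analysed here.

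ATF5, a bZIP factor close to ATF4 that is controlled by upstream reading frames and takes part in the mitochondrial stress response, gave positive differences in its 4 probe sets in the limma fit, but 2 of the 4 were negative in the spike-in covariate fit. The brightest, 11717800_a_at, was at 6.60, 7.39 and 7.14 in control and at 7.65, 7.55 and 7.50 in endosulfan arrays. All 3 endosulfan arrays lay above all 3 controls, and control 1 stood well below the other controls. The log2 difference was 0.53 ± 0.19 (SE, n = 3 each), with an interval of 1.06-fold to 1.96-fold, an unadjusted p of 0.0264 and an adjusted p (limma) of 0.276. Without control 1 it was 0.30, and 0.26 in the spike-in covariate fit, both smaller by over 1.5 times. The other sets overlapped between groups and gave log2 differences of 0.40 ± 0.23 (SE, 11754592_x_at), 0.28 ± 0.20 (SE, 11717801_a_at) and 0.19 ± 0.14 (SE, 11717802_s_at). In the same order these were 0.06, -0.08 and -0.10 in the spike-in covariate fit, and 0.15, 0.10 and 0.09 without control 1. Control 1 was the lowest of the 6 arrays in each of the 4 sets, at 5.46 against 6.03 to 6.59 in the other arrays for 11754592_x_at. The 4 sets report on 1 gene from the same RNA and are not replicates of the exposure.

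PPP1R15A, also called GADD34, is the stress-induced subunit that brings protein phosphatase 1 to eIF2 and so ends the response. Its 1 probe set, 11744465_x_at, was at 7.14, 7.20 and 7.32 in control and at 7.37, 7.21 and 7.35 in endosulfan arrays. Groups overlapped, and the 6 arrays spanned 0.23 on the log2 scale. On the log2 scale the difference was 0.09 ± 0.11 (SE), with an adjusted p (limma) of 0.699 and an interval of 0.90-fold to 1.26-fold. Its interval is among the 19 inside 1.5-fold.

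SESN2 and DDIT4 restrain the growth kinase mTORC1, SESN2 as a leucine sensor and DDIT4, also called REDD1, through the TSC complex. SESN2 set 11718325_at was at 7.46, 8.31 and 8.11 in control and at 8.18, 7.76 and 7.88 in endosulfan arrays, and 11718324_s_at was at 6.62, 7.10 and 6.51 and at 6.96, 6.50 and 6.93. In both sets control 2 was highest and the groups overlapped. The log2 differences were -0.02 ± 0.22 (SE) and 0.05 ± 0.19 (SE), and the SD between control arrays, 0.44 and 0.31, exceeded both. In the spike-in covariate fit they were -0.29 and -0.38. The 1 set of DDIT4, 11743972_a_at, was at 9.77, 10.26 and 9.83 in control and at 10.01, 9.83 and 9.80 in endosulfan arrays. Control 2 stood apart on the high side and control 1 was lowest, so the endosulfan arrays lay within the controls' range. The means differed by -0.07 ± 0.15 on the log2 scale (SE, interval 0.75-fold to 1.21-fold), and by -0.32 in the spike-in covariate fit.

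GDF15, a secreted cytokine of the TGF-beta superfamily that ATF4 and CHOP induce, had the widest spread between arrays of 1 group. Its set 11716663_a_at was at 6.88, 7.56 and 6.98 in control and at 8.07, 6.79 and 7.47 in endosulfan arrays. Endosulfan 1 held the highest and endosulfan 2 the lowest value, 1.28 apart on the log2 scale, while the group means differed by 0.30 ± 0.32 (SE). Another pair of sets had endosulfan 1 highest and endosulfan 2 lowest, 11716664_x_at with 8.82 and 7.90 and 11716665_s_at with 5.44 and 4.50. The log2 difference of 11716664_x_at, which stands for the gene, was 0.23 ± 0.23 (SE), with an adjusted p (limma) of 0.648. It was 0.02 without endosulfan 1, 0.48 without endosulfan 2 and -0.06 in the spike-in covariate fit, and no direction can be given for it. In that fit 11716663_a_at was at -0.14 and 11716665_s_at at -0.21. The remaining sets, 11757729_s_at and 11757730_x_at, gave 0.05 ± 0.11 (SE) and 0.23 ± 0.13 (SE) with overlapping groups.

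NUPR1, a small stress-induced chromatin protein, was measured by 11716937_a_at at 4.69, 4.98 and 4.98 in control and at 4.81, 4.80 and 4.73 in endosulfan arrays. Control 1 was lowest, and the endosulfan arrays lay between it and the other controls. The log2 difference was -0.10 ± 0.12 (SE, interval 0.77-fold to 1.12-fold), with an adjusted p (limma) of 0.684.

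Across the effectors, single arrays of both groups held the extremes. Control 1 gave the lowest value in 17 of the 27 sets, whereas it was lowest in 34.4% of all probe sets. Endosulfan 2 was lowest in 9, against 15.4% of all probe sets, and control 2 was lowest in the last, against 10.5%. The highest value fell to endosulfan 1 in 10 sets, to control 2 in 9, to control 3 in 5 and to endosulfan 3 in 3. In the same order, these arrays were highest in 32.2%, 7.94%, 11.7% and 16.1% of all probe sets. Relative to the mean of the 6 arrays, the median over the 27 sets was -0.18 in control 1 and 0.13 in control 2 on the log2 scale, and 0.13 in endosulfan 1 and -0.07 in endosulfan 2, so arrays within a group differed by more than the median difference of 0.09 between groups. Control 3 was the lowest array in 0 of the 27 sets. In the poly-A spike-ins control 1 was at 6.13 and control 3 at 5.84. A link between the spike-in level and the extremes of single arrays was not tested.

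**Figure D3:**
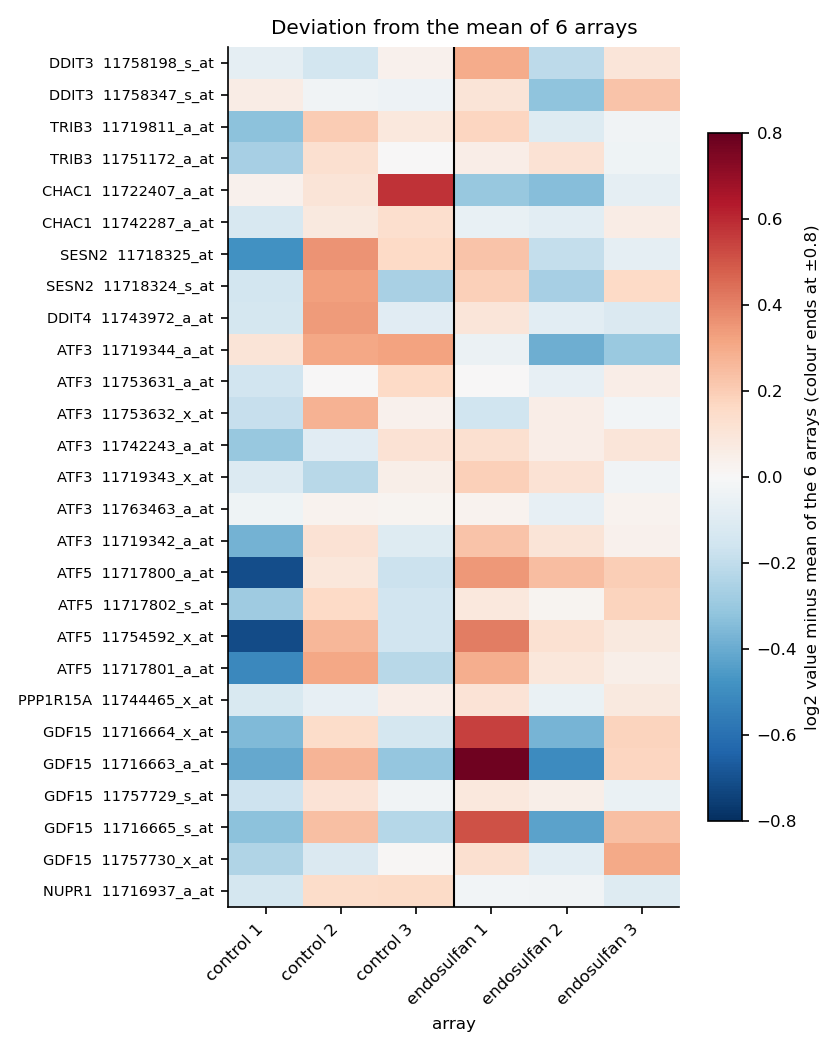
Deviation of each effector probe set (rows) on each array (columns) from its mean over the 6 arrays, as colour on a log2 scale (blue lower, red higher). Control 1 is the lowest array in 17 of the 27 rows. Endosulfan 1 is the highest and endosulfan 2 the lowest array in 3 GDF15 sets and in 11758198_s_at of DDIT3.

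Other genes of the pathway were taken from lists of 56 genes, all measured, that were put together with earlier results of these data known. Of these, 0 passed with limma and Benjamini-Hochberg adjustment over all genes, at an unadjusted p below 0.05 the count was 20 on the lower side (35.7%) and 0 on the higher (0%), while 10.5% of all genes lay lower and 6.64% higher by that rule. Among the effectors 2 of 10 genes lay lower and 1 higher by the same rule. The median log2 difference was -0.24 over the 56 genes, 0.00 over the 10 effectors and 0.05 over all genes. No test of a difference between the effectors and these lists was made.

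ATF4, the factor upstream of the effectors, was at 11.39, 11.57 and 11.53 in control and at 10.68, 10.53 and 10.79 in endosulfan arrays, all lower than every control, a log2 difference of -0.83 with an adjusted p (limma) of 0.196. The bZIP partner list gave 2 of 7 lower at an unadjusted p below 0.05, the other being the oxidative stress factor NFE2L2 at -0.61, and JDP2, at 0.04, was the 1 member on the higher side. The list of eIF2 kinases with their activators, eIF2 and eIF2B subunits and the phosphatase subunit PPP1R15B gave 7 of 17 lower, with the haem-regulated kinase EIF2AK1 at -0.90 and the eIF2B subunit EIF2B1 at -0.45, and with the eIF2B subunits EIF2B4 and EIF2B5 at 0.20 and 0.15 on the higher side. Among the amino acid and secreted targets of ATF4, 7 of 16 lay lower, with the serine synthesis enzyme PSAT1 at -1.15 and the lipoprotein receptor VLDLR at -1.14, while the amino acid transporter subunit SLC3A2 was at 0.32 and the secreted glycoprotein STC2 at 0.13. Of 5 further targets of CHOP, 1 lay lower by that rule, the cysteinyl-tRNA synthetase CARS1 at -0.83. The death receptor TNFRSF10B was at -0.15, the BH3 protein BBC3 at 0.17 and the oxidoreductase ERO1A at 0.18. In the list of the ATF6 and XBP1 branches, which serve endoplasmic reticulum folding, 3 of 11 lay lower, with the chaperones HSP90B1 at -1.08 and HSPA5 at -0.89, and SDF2L1 and CRELD2 were at 0.40 and 0.25. None of these single genes passed, and the smallest adjusted p among the 56 was 0.196.

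These values are those of each gene's brightest probe set, and several changed by over 1.5 times in another fit. ATF4, measured by 1 set, lay between -0.96 in the spike-in covariate fit and -0.76 without endosulfan 2. With all sets of a gene averaged, PSAT1 was at -0.65, HSPA5 at -0.51, EIF2AK1 at -0.58 and CRELD2 at 0.07, while STC2, at -0.15, and TNFRSF10B, at 0.07, changed sign. In the spike-in covariate fit EIF2AK1 was at -0.46, CARS1 at -0.50, SDF2L1 at 0.13, BBC3 at -0.23 and JDP2 at -0.29. NFE2L2 was at -0.30 without endosulfan 1. Without control 1, SLC3A2 was at 0.19, SDF2L1 at 0.19, EIF2B4 at 0.07, EIF2B5 at 0.04, CRELD2 at 0.16 and BBC3 at 0.01. ERO1A was at -0.06 without control 3, and STC2 at 0.00 without endosulfan 1.

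**Figure D4:**
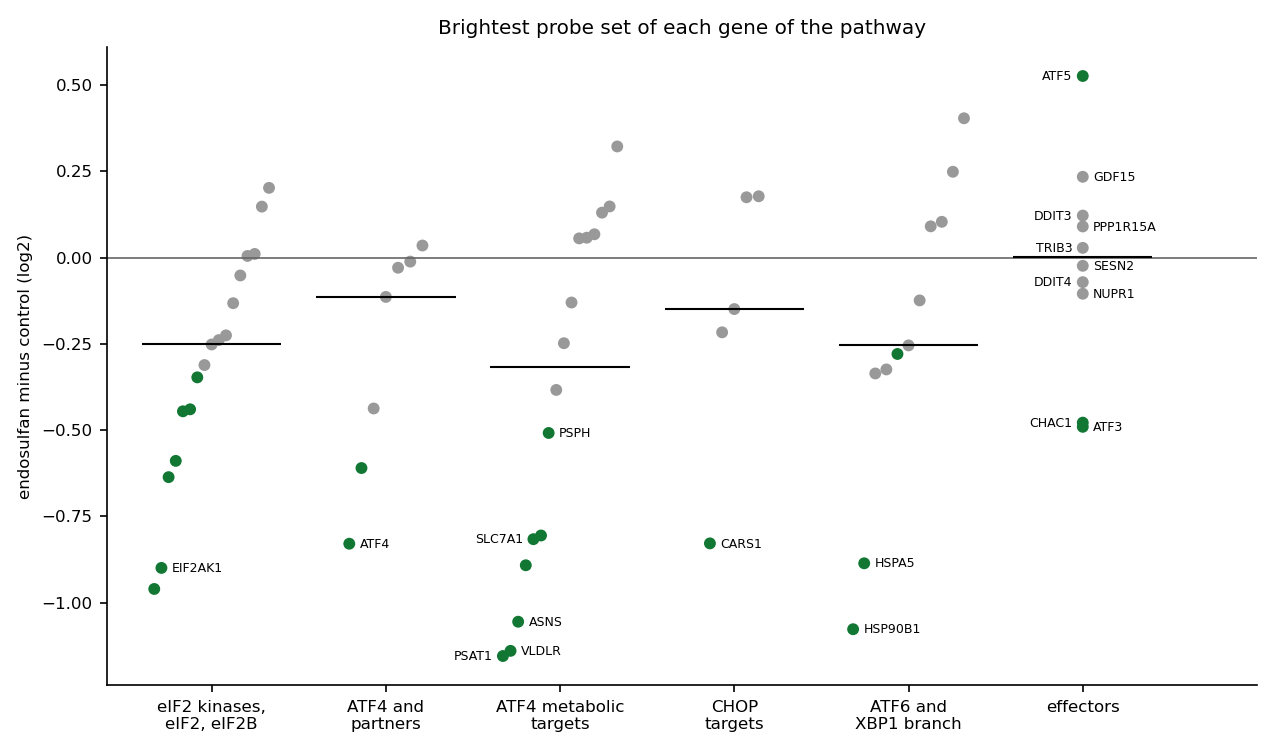
Log2 difference between endosulfan and control (vertical axis) of the brightest probe set of each gene, by list (horizontal axis), with lines for the list medians and green for an unadjusted limma p below 0.05. The effectors lie from -0.49 (ATF3) to 0.53 (ATF5) around a median of 0.00, and the other lists have medians from -0.32 to -0.11.

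Genes with the pattern closest to an effector over the 6 arrays were found by the root mean square difference of log2 values, each gene centred on its own mean. For ATF5, the effector with the widest range at gene level, the nearest were SLC27A5 at 0.0254, SLC2A4RG at 0.0347, CREB3 at 0.0351, WRAP53 at 0.0358 and C6orf120 at 0.0371. All 5 had control 1 as their lowest array and log2 differences between groups of 0.46 to 0.55. For DDIT3 the nearest were PLAAT5 at 0.0245, LILRA2 at 0.0247, LINC01121 at 0.0249, C4BPB at 0.0253 and TRIM31 at 0.0293. Each of these was highest in endosulfan 1 and lowest in endosulfan 2, as DDIT3 was, with group differences of 0.09 to 0.16. With 18132 genes to choose from over 6 arrays, close patterns are always found, and the list says nothing of shared function or control.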

How the data were processed

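Gene expression was measured on 6 one-colour Affymetrix arrays. The authors deposited 1 table of log2 values, made with Affymetrix Expression Console and RMA per the submitters' processing notes; RMA corrects background, equalises array distributions and summarises probes. Neither the labels nor the file header name versions or options. No step could call a probe set above background: the 23 antigenomic background sets ran from 2.15 to 10.6 (log2).

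Of 49395 rows, 102 array controls were set aside. The platform annotation named 1 gene for 44988 probe sets. Endosulfan was compared with control by limma 3.58.1 (lmFit, eBayes) in R 4.3.3 over all probe sets, and over genes by the probe set with the highest mean, two-sided, with Benjamini-Hochberg adjustment and a threshold of 0.05. Of the 27 effector sets, 12 end in s_at or x_at, which mark probes shared between transcripts. Effectors and lists were chosen with earlier results of these data known. All effector sets are named; from each other list, up to 2 genes in each direction by smallest p; for likeness, 5 genes. The fit was tested on simulated data for this comparison, over 49293 probe sets with 50 sets each shifted by 0.585, 1, 2 and 3 (log2). It recovered 10%, 30%, 92% and 98% of these, and 3 of its 118 calls were false. These shares hold for the simulated noise alone. How well that noise matches the spread of these arrays is not shown, so they do not measure the sensitivity of the real comparison. Promoter sequences are from RefSeq (GRCh38.p14). Figures used matplotlib 3.10.9.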

Additional observations from a re-analysis of the deposited data

Results flagged for a closer look

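Array controls, which the comparison of transcripts leaves out, had a higher mean level in the endosulfan arrays than in the control arrays, with overlapping groups for the poly-A transcripts. For the poly-A transcripts the log2 difference was 1.55 (exact permutation p = 0.2) and for the hybridisation controls, added after labelling, 0.64 (exact permutation p = 0.1, the smallest these arrays can give). In the fit with that spike-in covariate, the log2 difference of ATF3 was -0.51, that of CHAC1 -0.40, that of ATF5 0.26 and that of GDF15 -0.06, on the set that stands for each gene.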

How the results depend on the processing

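No effector set or gene passed under any alternative but 1. With limma's array weights, 2 of the 27 effector sets passed (ATF3 and CHAC1, adjusted p 0.0119 and 0.0375), against 7101 of all 49293 probe sets. At gene level 4 of the 10 effectors (ATF3, CHAC1, ATF5 and NUPR1) and 28 of the 56 other pathway genes passed. Over all genes 5915 of 18132 passed, so calls were common in this fit. The estimation of weights over genes stopped before it converged. Over all features, 4 probe sets and 1 gene passed in the reported fit, against 0 and 0 with the replicate block, without moderation and with the spike-in covariate, 0 genes when all sets of a gene were averaged, and 0 to 7 probe sets and 0 to 0 genes with 1 array left out. With the replicate block, the adjusted p of ATF3 and CHAC1 at gene level was 0.505. The labels do not say that replicate numbers mark a shared culture or day, so the numbers were not taken as pairs. Deviations of same-numbered arrays from their group means had r across probe sets of -0.51, -0.40 and 0.05. With 3 arrays in each group, these values cannot decide whether the numbers mark pairs. The spike-in covariate turned the sign of 10 of the 27 differences, none of them called. Further quantile normalization turned 3, and median centring 2. Among probe sets above the median level alone, 17 of the 27 could be fitted.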
